A study of Mus musculus with 47 samples.

Results

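Ribosomal protein and translation factor genes were followed in mouse liver, as 93 genes of the 6889 named genes measured. They were the genes whose single platform symbol began with Rpl, Rps, Mrpl or Mrps and a number, or with Eif or Eef and a number, with pseudogenes left out and each gene read by the brightest of its probesets (130 probesets of 9815 in all). By symbol, 35 were named as proteins of the cytosolic ribosome (25 of the large and 10 of the small subunit), 28 as proteins of the mitochondrial ribosome (18 large, 10 small) and 21 as initiation or elongation factors (17 and 4). The other 9 share the name but are neither: the kinases Rps6ka5, Rps6kc1 and Rps6kl1, the S19-binding Rps19bp1, the eIF4E inhibitor Eif4ebp2, the eIF4E transporter Eif4enif1 and the eEF1A methyltransferases Eef1akmt1, Eef1akmt3 and Eef1aknmt. A further 91 probesets that hold such a name beside other symbols were no members. The ribosomal and factor classes follow the symbols, and the role of each protein was not checked. Eef1e1, a synthetase-complex protein, thus counts among the elongation factors. All 93 matched a RefSeq gene, and much of the ribosome was not analysed here.

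Livers came from 47 female hairless SKH:QS mice, an immune-competent line, that entered the study at 8 weeks of age, and each gave 1 Affymetrix Mouse Gene 1.0 ST array. The mice received 1 of 3 commercial sunscreens or none on the back once a week, for 30 treatments over 36 weeks, and wore collars during treatment. Control-UVR mice had neither sunscreen nor UVR, and Control + UVR mice had no sunscreen and 29 kJ/m2 UVR at each treatment. ZnO-UVR and ZnO + UVR mice had a product whose active ingredient was ZnO nanoparticles, TiO2-UVR and TiO2 + UVR mice a product of TiO2 nanoparticles with organic UVR filters, and Organic-UVR and Organic + UVR mice a product of organic filters alone. Each group is represented by 6 arrays except ZnO + UVR, which has 5 and no replicate number 6. The treatment groups themselves were larger than the sets of mice profiled. Several ZnO + UVR and Control + UVR mice died or were euthanized before the endpoint, so the arrays of those groups come from the mice that remained. Fewer were lost in TiO2-UVR, Organic-UVR and Organic + UVR. The labels describe individual housing, whereas the study's methods kept each group in 1 cage, and a shared cage then cannot be told apart from the treatment.

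Cytosolic ribosomes are built from ribosomal RNA and a set of proteins made in near-equal amounts, whose genes are usually regulated together. Mitochondrial ribosomes have their own set of nuclear-encoded proteins and make the few proteins encoded by mitochondrial DNA. Initiation factors bring the first tRNA and the mRNA to the small subunit, and elongation factors carry the ribosome along. The guanine nucleotide exchange factor eIF2B recharges eIF2 after each initiation, and this step is the one held back when eIF2 is phosphorylated under stress. The liver secretes most plasma proteins, and protein synthesis is one of its main activities.

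All values below are on the log2 scale of the deposited table, where 1 unit is a doubling, and a difference is a difference of log2 values. A member was called when limma, fitted over all 9815 probesets with group and replicate number as terms, gave a Benjamini-Hochberg adjusted p under 0.1. With 6 arrays a group, the 95% interval of a member's difference from Control-UVR reached a median of 0.294 to either side. A lower level in a piece of liver can come from fewer cells of a type or from less RNA per cell, and these cannot be told apart here.

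Most members lay high on the array. The mean level over the 47 arrays ran from 3.00 to 12.03 among cytosolic ribosomal genes (median 9.44), from 5.31 to 10.7 among factors (8.48), from 5.60 to 9.30 among mitochondrial ribosomal genes (7.11) and from 4.28 to 8.25 among the others (5.45). The median of all probesets was 5.24, and 4 members lay below it. Levels of different probesets are not comparable as amounts of RNA, so these ranges only place the members on the array.

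In each class the members at the top were core components. They were Rps6 (12.03), the substrate of the S6 kinases, Rpl10a (11.8) and Rps4x (11.4) among cytosolic genes. Among factors they were the eIF3 subunit Eif3h (10.7), the translocase Eef2 (10.6) and the GTPase activator Eif5 (10.1). Among mitochondrial genes they were Mrpl30 (9.30), Mrpl12 (7.81) and Mrps7 (7.69). At the bottom stood Rpl39l (3.00) and Rpl10l (5.12), copies best known from testis, the germ-cell cap-binding factor Eif4e1b (5.31), Eif2b2 (6.16), Mrps36 (5.60) and Mrps27 (5.71).

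The members also moved from array to array by unequal amounts. The SD over the 47 arrays had a median of 0.38 among cytosolic genes, 0.332 among mitochondrial genes, 0.359 among factors and 0.229 among the others, beside 0.267 over all probesets. Rpl8 (SD 0.736), Rpl13 (0.636) and Rpl38 (0.591) varied most among cytosolic genes, Eef1b2 (0.556), Eef1d (0.50) and Eif3l (0.497) among factors, and Mrpl22 (0.452), Mrpl27 (0.449) and Mrps7 (0.440) among mitochondrial genes. Rps6, by contrast, had an SD of 0.102.

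The ribosomal genes varied with the replicate number of the labels more than with the treatment, and so, less strongly, did the factors. A member was tested for any difference among the 6 replicate numbers with limma's F-test in the fit already described, a test chosen after the values were seen. At an adjusted p under 0.1 it called 57 of 93 members, beside 19.3% of all probesets (28.1% at an unadjusted p under 0.05). The called members were 28 of 35 cytosolic ribosomal genes, 16 of 28 mitochondrial ribosomal genes, 11 of 21 factors and 2 of 9 others, Eef1akmt1 and Rps19bp1. Leaving out any 1 array gave 54 to 62 called members, and the cytosolic count stayed at 28 or 29.

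The change lay between numbers 1 to 3 and numbers 4 to 6, a division seen in the values and given as a description. The cytosolic class median, the median over the 35 genes of their deviation from their own mean over arrays, had a lowest, middle and highest value of -0.86, -0.24 and 0.16 over the 24 arrays numbered 1 to 3. Over the 23 arrays numbered 4 to 6 these were -0.03, 0.32 and 0.47. In 7 of the 8 groups every array of the higher numbers lay above every array of the lower numbers. The exception was Organic + UVR, where replicate 1 (0.16) lay above replicate 6 (-0.03).

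**Figure D1:**
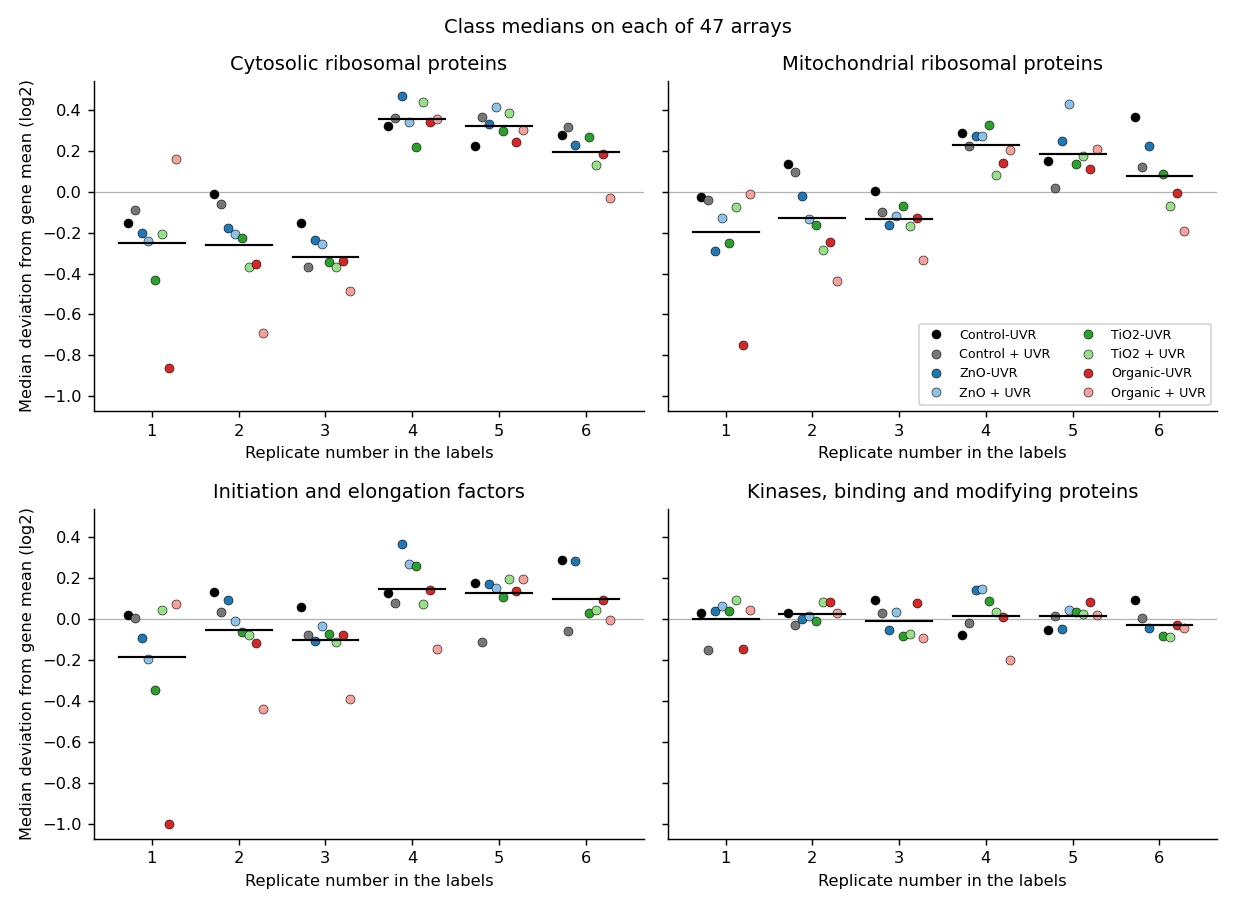
Class medians on each of the 47 arrays by replicate number, for cytosolic ribosomal, mitochondrial ribosomal, factor and other genes; the vertical axis is the log2 deviation from the mean over arrays, points are arrays coloured by group, and bars are means of a number. Cytosolic medians run from -0.86 to 0.16 at numbers 1 to 3 and from -0.03 to 0.47 at numbers 4 to 6.

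The other classes had the same step in lesser size. Mitochondrial class medians ran from -0.75 over -0.13 to 0.14 at numbers 1 to 3 and from -0.19 over 0.17 to 0.43 at numbers 4 to 6, without overlap in 6 of 8 groups. Factor medians ran from -0.999 over -0.07 to 0.13 and from -0.14 over 0.14 to 0.37, without overlap in 5 of 8 groups. The 9 other members had no such separation in any group. Replicate number took up 77.6% of the variance of the cytosolic class median, 54.5% of the mitochondrial, 32.4% of the factor and 4.02% of the other members' median. Group took up 5.15%, 16.5%, 17.8% and 12.7% in the same order.

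Gene by gene, the mean of numbers 4 to 6 lay above that of numbers 1 to 3 in 34 of 35 cytosolic genes (median difference 0.51), in 28 of 28 mitochondrial genes (0.31), in 16 of 21 factors (0.28) and in 3 of 9 others (-0.03). Over all 9815 probesets the median was -0.04. Rps28, a small-subunit protein, had means of 9.02, 8.75 and 8.70 at numbers 1 to 3 and of 9.98, 9.85 and 9.53 at numbers 4 to 6 (adjusted p = 3.69e-12 by limma). Every one of its later means lay above every earlier one.

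Other genes with a large step were also structural. Rpl13 had means of 8.67, 8.80 and 8.61 and then 9.89, 9.88 and 9.56 (adjusted p = 2.35e-10), Rpl8 stepped by 1.12 (7.41e-07), Rpl38 by 0.97 (1.66e-09) and Rps29 by 0.67 (1.22e-09). Among mitochondrial genes, Mrpl12, which also binds the mitochondrial RNA polymerase, stepped by 0.70 (6.63e-10). Among factors, the eEF1A exchange factor subunits Eef1d and Eef1b2 stepped by 0.85 (6.63e-10) and 0.89 (8.92e-08).

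The step was not shared by every member. Eif5b, the GTPase that joins the subunits, had means of 9.23, 9.48 and 9.45 at numbers 1 to 3 and of 8.60, 8.85 and 8.89 at numbers 4 to 6, lower by 0.61 (adjusted p = 2.95e-07). Eif5a, the hypusine-bearing factor, was lower by 0.28 (0.00337). Both thus went against the ribosomal genes. Among cytosolic genes Rpl6 (adjusted p = 0.174), Rpl39l, Rpl21, Rpl10l, Rpl29, Rpl10a (0.706) and Rps6 (0.785) were not called, and Rps6 differed by 0.03 and Rpl10a by -0.02. Of these, Rpl39l (3.00) and Rpl10l (5.12) lay below the median level of all probesets. The probesets of Rps6 (12.03), Rpl10a (11.8) and Rpl21 (11.2) lay near the top and among probesets from other chromosomes, as described below. Rps4x (11.4), placed likewise, did step (0.87). Whether each of these probesets could show a step was not tested. The chips were run in batches on separate days, each with a chip of every group. The labels do not say that the replicate number is that batch, and what the number stands for was not tested.

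**Figure D2:**
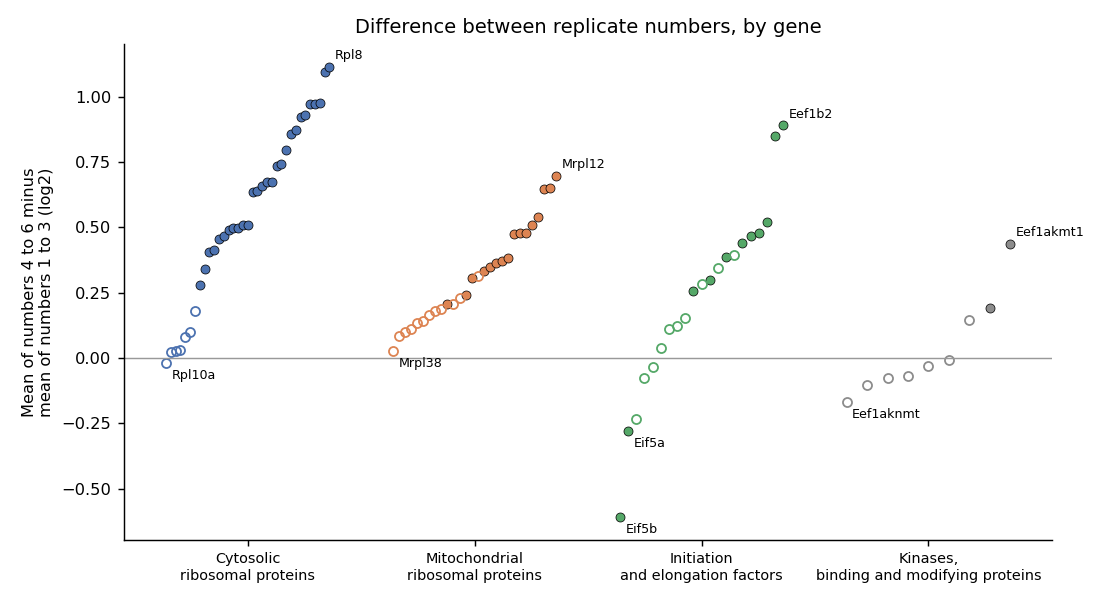
Mean of replicate numbers 4 to 6 minus mean of numbers 1 to 3 on the log2 scale for each of the 93 genes, by class; filled points passed the F-test over the 6 numbers at an adjusted p under 0.1. Of 35 cytosolic genes 34 lie above 0, and Eif5b lies lowest at -0.61.

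Many cytosolic ribosomal genes have processed copies elsewhere in the genome, so the place a probeset reads was examined. Probesets of this array are numbered roughly along the chromosomes, and 50 of the 69 cytosolic probesets lay among neighbours (10 on each side) from a chromosome other than that of their gene, against 4 of 61 probesets of the other members. For 17 of the 35 genes, among them Rps28 and Rpl13, no probeset lay on the gene's own chromosome, and 20 of the 35 brightest probesets lay elsewhere. The neighbours of member probesets lay only on chromosomes 1 and 10 to 16, and these 17 genes lie on other chromosomes. A probeset on the own chromosome thus could not be found for them. All these counts depend on which chromosomes the analysed probesets cover. A probeset that lay elsewhere may read a copy, the gene or both, and these were not told apart.

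The probesets of a gene nevertheless gave near-equal differences. In 14 of the 15 cytosolic genes with several probesets the lowest correlation between any pair over the 47 arrays was above 0.8, and Rpl21 had the lowest (0.596). These points share arrays and, in part, probe sequence, and 3 pairs of probesets held identical values. Between mice given organic filters and the rest, the median difference was -0.14 over 19 probesets on the gene's own chromosome (17 below 0) and -0.12 over 50 elsewhere (50 below 0). The 4 probesets of Rpl19 lay between -0.21 and -0.14 and the 10 of Rpl23a between -0.13 and -0.09.

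Promoters are shown because the ribosomal classes moved together across arrays and because ribosomal protein mRNAs are known to begin with a run of C and T that sets their translation. RefSeq windows (GRCm38.p6, 250 bases before to 50 after the start) were at hand for 75 of the 93 members. A run of 10 or more C or T within 20 bases before to 50 after the start, read on the gene's strand, was present in 18 of 27 cytosolic genes (66.7%), 4 of 24 mitochondrial genes (16.7%), 4 of 17 factors (23.5%) and 2 of 7 others (28.6%), beside 13.79% of 27025 genes of the table. The letters CGGAAG or their complement CTTCCG, the core bound by ETS factors such as GABPA, were in 18 of 27 (66.7%), 13 of 24 (54.2%), 12 of 17 (70.6%) and 5 of 7 (71.4%), beside 18.78% of all genes.

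Below are the C or T runs of 4 cytosolic genes that were lower in mice given organic filters. Each is 30 bases 5′ to 3′ on the gene's strand, with the run in capitals. Counted from the annotated start, the runs began at base 26 in Rps15, 32 in Rpl6, -11 and 33 in Rpl19 and 41 in Rpl41, so none began at the annotated start itself. In Rps15 the window is chr10:80292446-80292475 (+ strand), in Rpl6 chr5:121204521-121204550 (+), in Rpl19 chr11:98026903-98026932 (+) and chr11:98026944-98026973 (+) and in Rpl41 chr10:128549119-128549148 (- strand).
Rps15: gcagcccgtaCTTCCTTTTCCgagtaaccg
Rpl6: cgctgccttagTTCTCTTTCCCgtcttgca
Rpl19, before the start: ggggcttgggCTCTCCCCTTCgcagataat
Rpl19, after the start: gcggcccacaagCTCTTTCCTTTCgctgct
Rpl41: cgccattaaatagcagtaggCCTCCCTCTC

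The CGGAAG core is shown for genes of all 3 machinery classes that were lower in those mice, with the core in capitals. The windows are chr10:80292373-80292402 (+) for Rps15, chr12:85219464-85219493 (+) for Eif2b2, chr15:77970877-77970906 (-) for Eif3d, chr11:97041548-97041577 (+) for Mrpl10 and chr13:73331013-73331042 (+) for Mrpl36.
Rps15: gtatccgcagagCGGAAGctgttgagcggt
Eif2b2: tgtttcaccgagCGGAAGttgacctctctc
Eif3d: agctgtgacacaCTTCCGgttgtgtctcac
Mrpl10: aatccttagctaCTTCCGtctccgcgcagc
Mrpl36: actgcgcagacgCGGAAGcttcgctaaccg

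These matches describe the letters of the windows and are not shown sites of a factor. Of the 14 genes called in a comparison of groups, 12 had a window, of which 7 held the run and 8 the core, beside 28 and 48 of the 75 members with a window.

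Against Control-UVR, members were called in 1 of the 7 other groups. Control + UVR called 0 members (0.0509% of all probesets), with 6 at an unadjusted p under 0.05 (12.8%). ZnO-UVR called 0 (0%) with 0 at an unadjusted p under 0.05 (1.52%), and ZnO + UVR 0 (0%) with 2 (2.81%). TiO2-UVR called 0 (0%) with 3 (3.86%), and TiO2 + UVR 0 (0.693%) with 10 (10.2%). As shares of the 93 members these counts lay at or below their background, except for the unadjusted count in TiO2 + UVR, which was slightly above it.

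Organic-UVR called 4 members, all lower, where 3.27% of all probesets were called and 2.53% were called lower. At an unadjusted p under 0.05 it had 40 members, 38 lower and 2 higher, beside 19.1% of all probesets. The 4 calls are a share near the background, whereas 40 of 93 is a share more than double it. Organic + UVR called 0 (1.65%), with 23 at an unadjusted p under 0.05, all lower (17.1%). Organic + UVR called 0 against Organic-UVR (0%, with 2 members at an unadjusted p under 0.05 beside 3.39%) and 0 against Control + UVR (0.0611%, with 11 beside 7.25%). Over the 4 groups with UVR against the 4 without, 0 members were called (0%), and 2 had an unadjusted p under 0.05 (6.8%). The F-test over all 8 groups called 0 members (1.93%), with 9 at an unadjusted p under 0.05 (11.4%).

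Every group had most members below Control-UVR, and all these comparisons share its 6 arrays. The count was 84 of 93 in Organic-UVR, 79 in Organic + UVR, 80 in TiO2-UVR, 74 in TiO2 + UVR, 64 in Control + UVR, 64 in ZnO-UVR and 55 in ZnO + UVR. Of all probesets, 42.0% (TiO2 + UVR) to 50.4% (ZnO-UVR) lay below 0. Members moved together across arrays, so these are not counts of independent genes. The mean pairwise correlation of their deviations from group means was 0.362, beside 0.00826 over all probesets. These deviations still hold the step between replicate numbers, which the fit of the differences takes out. By class the size of the difference varied. In Organic-UVR the median difference was -0.21 for cytosolic genes (33 of 35 below 0), -0.34 for mitochondrial genes (27 of 28) and -0.25 for factors (19 of 21). In Organic + UVR it was -0.16 (30), -0.25 (27) and -0.22 (18), in TiO2-UVR -0.13 (33), -0.12 (24) and -0.12 (19), and in TiO2 + UVR -0.11 (29), -0.18 (25) and -0.15 (16). In Control + UVR the medians were -0.02 (19), -0.14 (23) and -0.16 (16), and their sign was not settled, since with the array slope (that of an array regressed on the average array over all probesets) as a covariate they were 0.09, -0.04 and 0.02 and after quantile normalization 0.05, 0.02 and -0.06.

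In the ZnO groups the medians were nearer to 0, though most members again lay below it. The medians were -0.03 (23), -0.10 (24) and -0.05 (13) in ZnO-UVR and -0.02 (21), -0.07 (20) and -0.01 (13) in ZnO + UVR. The mitochondrial count of 24 of 28 in ZnO-UVR was that of TiO2-UVR. For all probesets the median was 0.03 in Organic-UVR, but most of these lay lower on the array than the members. The mean array slope was highest in Control-UVR (1.03) and lowest in Organic-UVR (0.973, or 1.01 without its replicate 1). None of the median differences between groups was tested as such.

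**Figure D3:**
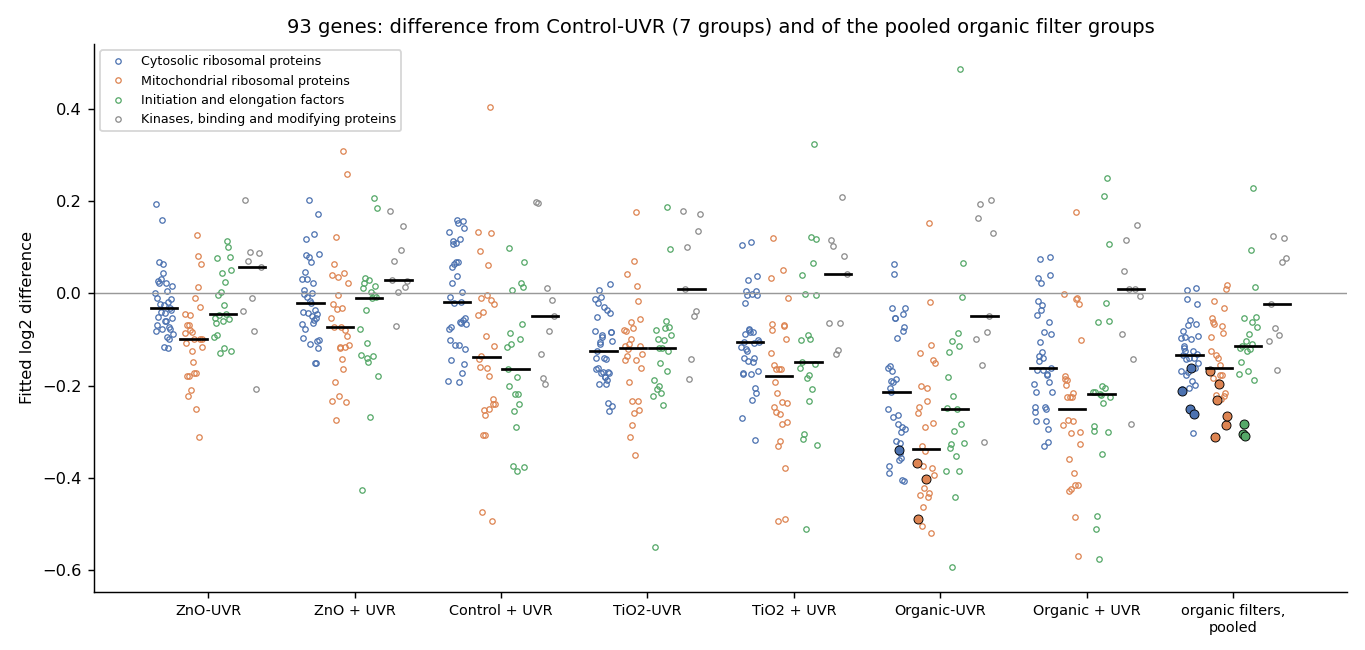
Fitted log2 differences of the 93 genes by class in the 7 groups against Control-UVR and in the 4 groups given organic filters against the 4 without; filled points were called at an adjusted p under 0.1 and bars are class medians. Most points lie below 0 in every column, with medians of -0.13 (cytosolic), -0.16 (mitochondrial) and -0.11 (factor) in the last column.

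In Organic-UVR the called members were Rpl6, Mrpl10, Mrpl13 and Mrpl54. Rpl6, a large-subunit protein on the solvent side of the ribosome, had 9.77, 10.6 and 10.7 as lowest, median and highest level in Organic-UVR and 10.7, 10.8 and 10.9 in Control-UVR. All 6 arrays of Organic-UVR lay below the lowest of Control-UVR, by a narrow gap. Rpl6 fell by 0.34 (SE 0.106, adjusted p = 0.0910).

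Of the mitochondrial genes, Mrpl10 had 6.94, 7.22 and 7.39 in Organic-UVR and 7.35, 7.60 and 7.72 in Control-UVR and fell by 0.37 (SE 0.112, adjusted p = 0.0797). Mrpl54 had 5.33, 6.02 and 6.48 against 6.12, 6.42 and 6.48 and fell by 0.40 (SE 0.129, adjusted p = 0.0984). Mrpl13 had 6.23, 7.39 and 7.78 against 7.28, 7.76 and 8.07 and fell by 0.49 (SE 0.1504, adjusted p = 0.0818). The groups overlapped in each, with 4, 5 and 2 of the 6 Organic-UVR arrays below the lowest control array for Mrpl10, Mrpl54 and Mrpl13 in turn.

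The 4 calls depended on Organic-UVR replicate 1, the array with the lowest cytosolic (-0.86), mitochondrial (-0.75) and factor (-0.999) medians of all 47. Regressed on the average array over all probesets, its values gave a slope of 0.772, where the other 46 arrays lay between 0.895 and 1.07. Without it, 0 members were called in Organic-UVR, 7 had an unadjusted p under 0.05, and the median difference over the 93 members was -0.11 in place of -0.25. Organic + UVR then called 6. The shares over all probesets in this refit are not given here, so its counts only describe how the calls moved. With the slope as a covariate 0 members were called in Organic-UVR, and the medians there were -0.09 for cytosolic genes, -0.20 for mitochondrial genes and -0.05 for factors, in place of -0.21, -0.34 and -0.25.

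Pooling the 4 groups given organic filters (24 arrays) against the 4 without (23 arrays) gave the most calls. Of the 93 members 13 were called, all lower, beside 4.94% of all probesets called and 3.4% called lower. The 13 are 14.0% of the members. They were 4 cytosolic ribosomal genes, 6 mitochondrial ribosomal genes and 3 factors. At an unadjusted p under 0.05 there were 38 members lower and 2 higher, beside 19.6% of all probesets, and the 2 higher were Eif4e1b (0.23) and Rps6kc1 (0.12).

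The pooled differences were small and mostly of one sign. The median was -0.13 for cytosolic genes (33 of 35 below 0), -0.16 for mitochondrial genes (26 of 28), -0.11 for factors (18 of 21) and -0.02 for the others (5 of 9), beside 0.02 over all probesets (42.4% below 0). These sizes depended on the processing: the first 3 medians were -0.08, -0.08 and -0.04 after quantile normalization and -0.08, -0.10 and -0.02 with the array slope as a covariate. The slope had a mean ± SD of 0.987 ± 0.0603 with organic filters (0.997 if Organic-UVR replicate 1 is left out) and 1.013 ± 0.0313 in the other groups. Most members lay higher on the array than most probesets, so the median over all probesets is not matched to their level. The part of the slope in the differences was not tested beyond this covariate. The 95% interval of a member's pooled difference reached a median of 0.149 to either side. Just outside the threshold were Rpl21 (-0.13, adjusted p = 0.118) and Eif4e2 (-0.19, adjusted p = 0.122). The TiO2 product and the organic product have 2 filters in common and differ in the rest, so the pooled value is a mean over both.

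Of the factors, both measured subunits of eIF2B fell. Eif2b5, its catalytic subunit, had 5.63, 6.39 and 7.16 as lowest, median and highest level with organic filters and 6.18, 6.59 and 7.01 without. With filters, 17 of 24 arrays lay below the median of the others and 7 below their lowest. Eif2b5 fell by 0.28 (SE 0.0771, adjusted p = 0.0376).

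By group the mean ± SD of Eif2b5 was 6.66 ± 0.138 in Control-UVR, 6.55 ± 0.290 in Control + UVR, 6.65 ± 0.352 in ZnO-UVR, 6.67 ± 0.213 in ZnO + UVR (n = 5), 6.56 ± 0.395 in TiO2-UVR, 6.35 ± 0.208 in TiO2 + UVR, 6.33 ± 0.411 in Organic-UVR and 6.17 ± 0.308 in Organic + UVR (n = 6 elsewhere). Organic + UVR was lowest, and neighbours in this order lay within their SD of each other. Eif2b2, the beta subunit, had 5.16, 6.07 and 6.65 with filters and 5.80, 6.28 and 7.03 without, and fell by 0.30 (SE 0.0947, adjusted p = 0.0746). Here 21 of 24 arrays with filters lay below the median of the rest.

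In single groups the eIF2B subunits were not called. Against Control-UVR, Eif2b5 differed by -0.48 in Organic + UVR (adjusted p = 0.116), -0.33 in Organic-UVR, -0.31 in TiO2 + UVR, -0.10 in TiO2-UVR and -0.11 in Control + UVR. Eif2b2 differed by -0.51, -0.34, -0.32, -0.21 and -0.09 in the same order. In the ZnO groups Eif2b5 and Eif2b2 lay between -0.09 and 0.03.

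The third factor called was Eif3d, the eIF3 subunit that can bind the cap of some mRNAs. It had 6.93, 8.39 and 9.03 with filters and 7.79, 8.60 and 9.19 without, with 18 of 24 arrays below the median of the rest, and fell by 0.31 (SE 0.1002, adjusted p = 0.0868). The other genes of eIF2 and of cap binding were not called. Eif2d, which can deliver tRNA without eIF2, differed by -0.05, the helicases Eif4a1 and Eif4a2 by -0.12 and 0.10, their stimulator Eif4b by -0.06, the inhibitor Eif4ebp2 by -0.07 and the transporter Eif4enif1 by -0.17 (adjusted p = 0.229). Subunits of eIF2 itself and the eIF2 kinases were not analysed here.

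Of the small mitochondrial subunit, Mrps6 and Mrps7 fell. Mrps6 had 6.40, 7.18 and 7.73 with filters and 6.57, 7.44 and 7.91 without, with 20 of 24 arrays below the median of the rest, and fell by 0.29 (SE 0.0788, adjusted p = 0.0428). Mrps7 had 6.44, 7.51 and 8.21 against 7.02, 7.85 and 8.53, with 17 of 24 below, and fell by 0.27 (SE 0.0790, adjusted p = 0.0627). In both the groups overlapped over most of their range.

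Of the large mitochondrial subunit, Mrpl36, Mrpl44, Mrpl54 and Mrpl10 fell. Mrpl36 had 5.89, 7.37 and 8.23 with filters and 7.33, 7.64 and 8.13 without, with 10 of 24 arrays below the lowest of the rest, and fell by 0.31 (SE 0.0945, adjusted p = 0.0695). Mrpl44, which has a ribonuclease fold, had 5.98, 6.52 and 7.12 against 6.28, 6.82 and 7.23 and fell by 0.23 (SE 0.0697, adjusted p = 0.0668). Mrpl54 fell by 0.20 (SE 0.0653, adjusted p = 0.0934) and Mrpl10 by 0.17 (SE 0.0566, adjusted p = 0.0970). Mrpl13, called in Organic-UVR, was not called here.

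Of the cytosolic ribosome, Rps15, Rpl41, Rpl19 and Rpl6 fell. Rps15, at the head of the small subunit, had 7.43, 8.45 and 8.86 with filters and 8.17, 8.65 and 9.25 without, and fell by 0.26 (SE 0.0774, adjusted p = 0.0610). Rpl41, the shortest ribosomal protein, had 10.18, 10.96 and 11.39 against 10.46, 11.11 and 11.84 and fell by 0.25 (SE 0.0763, adjusted p = 0.0707). For both, 15 of 24 arrays with filters lay below the median of the rest.

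Rpl19, whose long tail bridges the subunits, had 8.30, 9.44 and 9.90 with filters and 8.97, 9.52 and 10.1 without, and fell by 0.21 (SE 0.0660, adjusted p = 0.0737). Rpl6 had 9.77, 10.6 and 10.8 against 10.3, 10.7 and 10.9 and fell by 0.16 (SE 0.0540, adjusted p = 0.0986). Rpl6 had 21 of 24 arrays below the median of the rest and Rpl19 13 of 24. The dimmer Rpl6 probeset was not called (-0.17, adjusted p = 0.131), nor was the dimmest of Rpl19 (-0.14, adjusted p = 0.184). Both Rpl6 probesets lay among neighbours from another chromosome, as did the brightest of Rpl19. The Rpl19 probeset on the gene's own chromosome was also called (-0.20, adjusted p = 0.0920).

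**Figure D4:**
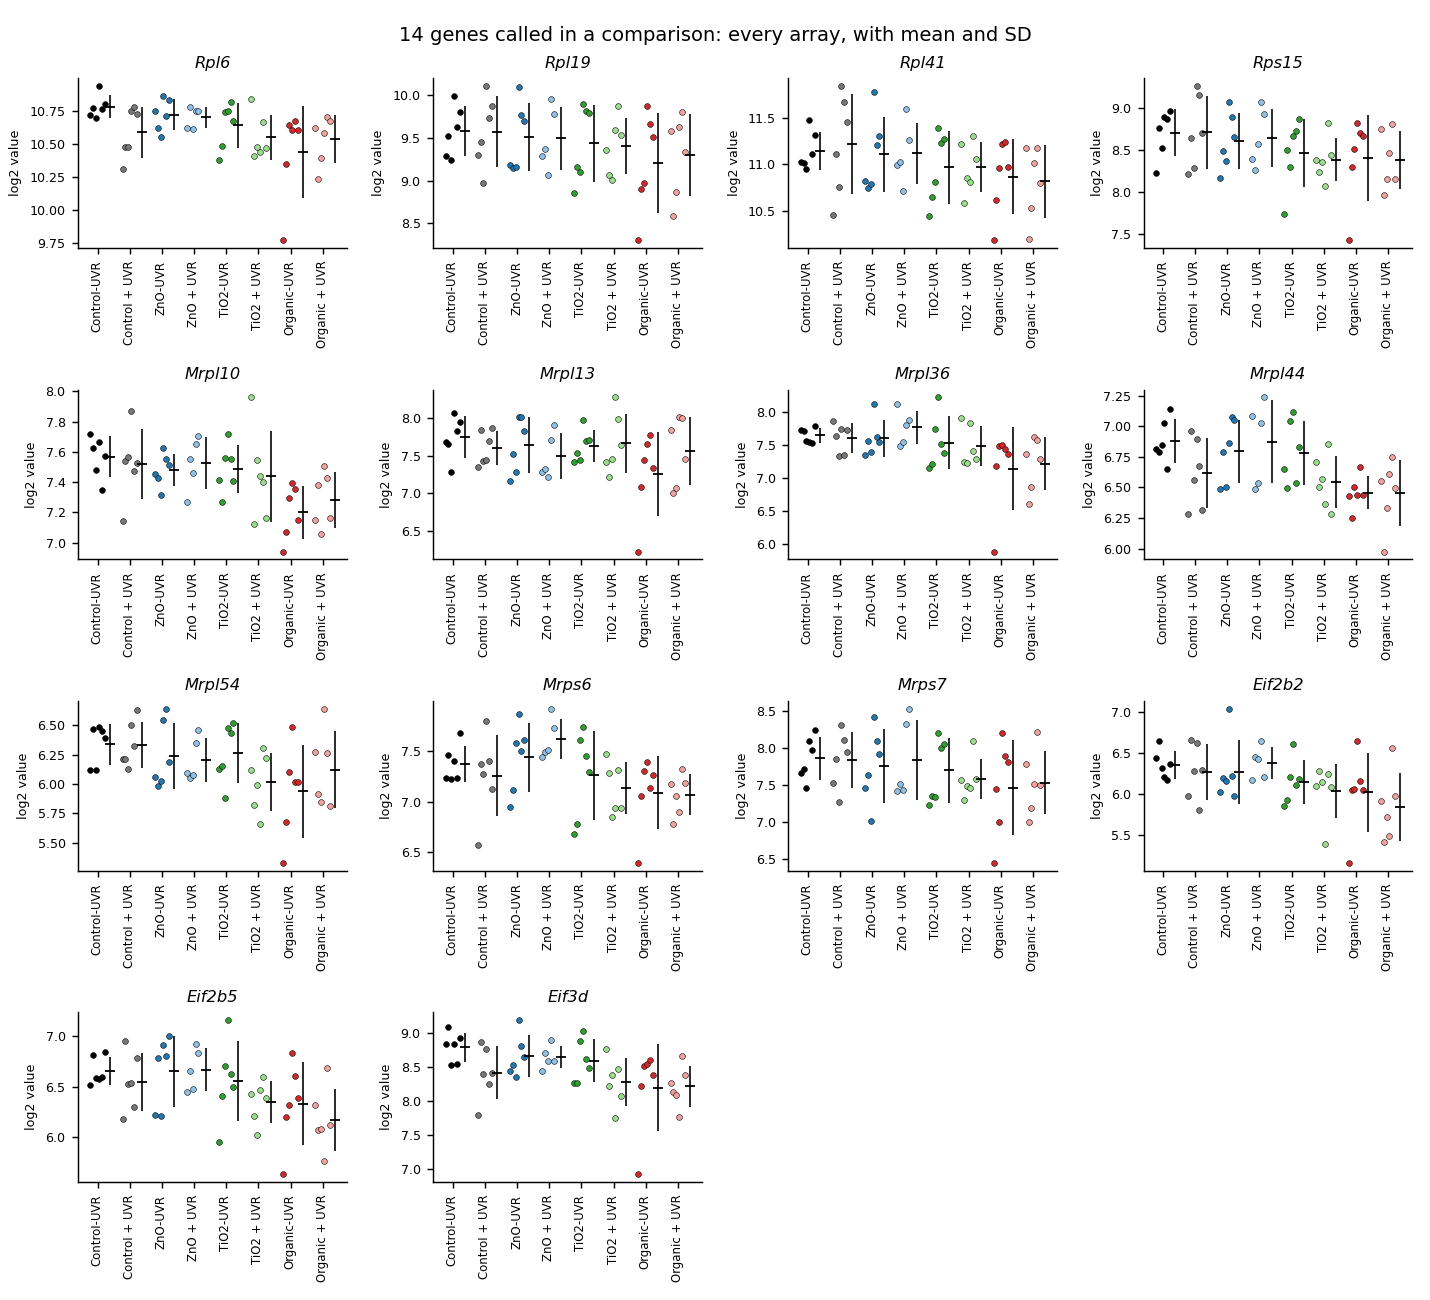
Levels on the log2 scale of the 14 called genes on every array by group, with mean ± SD (n = 6, ZnO + UVR n = 5). The lowest array is often Organic-UVR replicate 1, as for Eif3d (6.93) and Mrpl36 (5.89).

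Within each replicate number, where 4 arrays with organic filters met 4 without (3 at number 6), the median difference over the 93 members was -0.18, -0.26, -0.10, -0.06, -0.01 and -0.16 at numbers 1 to 6. For the cytosolic genes it was -0.20, -0.31, -0.13, -0.02, -0.04 and -0.12, for the mitochondrial genes -0.12, -0.29, -0.08, -0.05, -0.04 and -0.31 and for the factors -0.26, -0.21, -0.09, -0.06, 0.03 and -0.10. The class medians were below 0 at each number except for the factors at number 5, where 9 of 21 lay below 0.

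The 13 genes were also read with and without UVR, where their sign is largely fixed by the pooled difference that chose them. Their differences lay between -0.33 and -0.18 in the 4 groups without UVR and between -0.38 and -0.11 in the 4 with UVR. In these smaller sets 0 members were called without UVR (0% of all probesets), with 28 at an unadjusted p under 0.05 (15.2%). With UVR 1 was called (2.45%), Eif2b5 (-0.36, adjusted p = 0.0998), with 17 at an unadjusted p under 0.05 (11.2%). The test of the difference between both sets called 0 members (0.0306%), with 5 at an unadjusted p under 0.05 (7.54%).

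The pooled calls also changed with single arrays. Without Organic-UVR replicate 1, 6 of the 93 members were called in the pooled comparison and the median difference was -0.09 in place of -0.13. The 6 genes were Eif2b5, Mrps6, Mrpl36, Mrpl44, Mrps7 and Rps15. Eif2b5 and Mrps6 were called whichever of the 47 arrays was left out. The pooled fit called 0 members without the replicate number as a term, 0 with the array slope as a covariate and 4 after quantile normalization, against 28 with array weights. With each cytosolic gene read by a probeset on its own chromosome, where it had one, 12 were called. The share of all probesets called in each of these refits is not given here.

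In the groups with no call, the member with the smallest p of each class had the following differences from Control-UVR. In Control + UVR they were Rpl10a (-0.19, adjusted p = 0.425), Mrpl32 (-0.47, 0.244), Eif3m (-0.39, 0.284) and Eef1akmt3 (0.20, 0.445). In TiO2 + UVR they were Rpl6 (-0.23, 0.448), Mrpl45 (-0.49, 0.198), Eif3d (-0.51, 0.348) and the kinase Rps6ka5 (0.21, 0.607). In Organic + UVR they were Rpl6 (-0.25, 0.232), Mrpl44 (-0.43, 0.124), Eif2b5 (-0.48, 0.116) and Eif4enif1 (-0.28, 0.331). Rpl6, Eif3d and the eIF2B subunit Eif2b5 are also genes called in the pooled comparison. That comparison holds these same arrays, so their place here is no separate result. None of them passed the threshold in these groups.

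In the groups with the fewest small p-values, the differences of these members were of mixed sign with ZnO. In TiO2-UVR only that of Rps6kl1 lay above 0. In TiO2-UVR these members were Rps7 (-0.24), Mrpl55 (-0.26), the synthetase-complex protein Eef1e1 (-0.55) and Rps6kl1 (0.17). In ZnO-UVR they were Rpl29 (0.16), Mrps27 (-0.31), Eif5b (-0.13) and Eef1akmt3 (0.20), and in ZnO + UVR Rpl32l (0.20), Mrps16 (0.31), Eif3m (-0.27) and Rps6ka5 (0.15). The adjusted p of each of these was 0.968 or above. In Organic-UVR the smallest p of the factors was that of Eif3d (-0.59, adjusted p = 0.111) and of the other members that of Eif4enif1 (-0.32, adjusted p = 0.246).

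Of the related genes outside the rule, each list had 1 gene called in the pooled comparison, where 4.94% of all probesets were called. Of 26 targets of the integrated stress response listed, 7 were measured and 1 was lower, Atf4 (-0.24, SE 0.0653, adjusted p = 0.0358), the transcription factor made when eIF2 is phosphorylated. Of 30 genes of mTORC1 and its control 9 were measured and 1 was lower, Larp1 (-0.24, adjusted p = 0.0648), which binds the C or T run of ribosomal protein mRNAs. Ribosome biogenesis (25 of 52 measured) had Rrp1 lower (-0.26, 0.0707), other mitochondrial translation genes (10 of 25) the elongation factor Gfm2 (-0.29, 0.0514), and other cytosolic translation genes (10 of 26) the small-subunit protein Rpsa (-0.21, 0.0610). The list medians were -0.03, -0.14, -0.09, -0.13 and -0.05. In Organic-UVR against Control-UVR (3.27% of all probesets called), Tbc1d7 of the mTORC1 list (-0.74, adjusted p = 0.0782), Rpf2 of ribosome biogenesis (-0.50, 0.0491) and Gfm2 (-0.51, 0.0978) and Mtrf1 (-0.66, 0.0603) of mitochondrial translation were lower, and in Organic + UVR (1.65%) Rpf2 was (-0.48, 0.0823).

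The tissue label rested on few genes, since of 8 hepatocyte markers Cps1 alone was measured, at a level of 12.7, and it was not called. Of the markers of other cells, 2 of 10 T and B cell, 2 of 6 Kupffer, 3 of 5 cholangiocyte, 2 of 5 endothelial, 2 of 5 stellate, 1 of 5 red cell and 2 of 4 dividing cell genes were measured. Sox9 (-0.24, adjusted p = 0.0834), found in bile duct cells, and Pecam1 (-0.28, adjusted p = 0.0831), found in endothelium, were lower with organic filters beside the 13 members, and no other marker was called. The median deviation of the 2 endothelial genes from their means ran from -0.65 to 0.35 with organic filters and from -0.35 to 0.72 without, and that of the 3 cholangiocyte genes from -0.32 to 0.35 and from -0.37 to 0.22. Krt7, another bile duct gene, was higher in Organic-UVR (0.57, adjusted p = 0.00641) and Organic + UVR (0.37, adjusted p = 0.0950) than in Control-UVR, and Pecam1 was lower in Organic + UVR (-0.66, adjusted p = 0.0720). Mean levels of these markers ran from 4.02 to 8.46. The part of these cells in the members' differences was not tested.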

How the data were processed

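The authors processed 6 batches of 8 chips, each with 1 chip of every group, and normalized by robust multi-array average (RMA, also in the submitters' processing notes). The deposited series table holds log2 RMA values, without version in the sources used here. The methods state that batch effects were removed, but not whether this applies to the deposited values. Control probesets were left out, and transcripts outside the table were not analysed here.

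Members and lists were chosen with earlier results of these data known. limma 3.58.1 in R 4.3.3 was run once on all 47 arrays, with group and replicate number as terms (34 residual degrees of freedom), and adjusted by Benjamini-Hochberg over 9815 probesets at 0.1, the 10% rate of the methods. Named were called members (where over 12, the 6 largest decreases and increases), smallest p by class and group, brightest, dimmest and most variable members and the eIF2 and cap-binding genes. The other called members, the genes of the replicate number test and the promoter genes were named after their values were seen. On simulated data of 9815 probesets for Organic + UVR against Control-UVR, the fit found 0.1% of differences of 0.25, 50.6% of 0.5 and 97.5% of 1. At each size 1000 probesets were changed over 5 draws. The simulated noise was independent between probesets, with no step between replicate numbers and no outlying array, unlike the data. The pooled comparison was not simulated. The number of arrays limits precision. Separate mice are named by the labels as biological replicates.

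Alternatives were no replicate block, array weights, quantile normalization, no dim probesets, 1 probeset a gene, only the compared arrays, a threshold of 0.05, the array slope as a covariate, and leaving out each array. Added with the values known were the use of probesets on the gene's own chromosome, the sets by UVR and the test of the replicate number.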

Additional observations from a re-analysis of the deposited data

Results flagged for a closer look

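Of 144 sets of 4 to 10 arrays of 1 group examined for a sample apart from its group, 11 held one, and chance gives about 1 in 20. Organic-UVR replicate 1 lay below the other 5 arrays of its group for Eif3d (6.93, others 8.22 to 8.61), Mrpl36 (5.89, others 7.19 to 7.51), Mrps6 (6.40, others 7.06 to 7.39), Rpl6 (9.77, others 10.35 to 10.68), Rps15 (7.43, others 8.30 to 8.81) and the factor median (-0.999, others -0.11 to 0.14). ZnO-UVR replicate 4 lay above its group for Eif2b2 (7.03, others 5.98 to 6.21) and Mrpl36 (8.13, others 7.36 to 7.64). TiO2 + UVR replicate 4 lay below its group for Eif2b2 (5.39, others 6.08 to 6.27) and TiO2 + UVR replicate 5 above it for Mrps7 (8.09, others 7.30 to 7.58). Control + UVR replicate 1 lay below its group for the median of the 9 other members (-0.15, others -0.03 to 0.03).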

How the results depend on the processing

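Numbers of called members depended strongly on the processing, and no called difference changed sign. Without the replicate block, 0 members were called in the pooled organic filter comparison (13) and 0 in Organic-UVR (4). These were 28 and 12 with array weights, 0 and 0 with the array slope as a covariate, 4 and 0 after quantile normalization, and 2 and 0 at a threshold of 0.05. Organic-UVR gave 0 in a fit of the compared arrays with the replicate block and 11 without dim probesets. Array weights called 38 in Organic + UVR, 3 in Control + UVR, 2 in TiO2 + UVR, 2 with UVR pooled and 9 among all groups. Organic + UVR gave 3 without dim probesets and 1 with 1 probeset a gene. The cause of these changes was not tested. The share of all probesets called in each setting, or with an array left out, is not given here. These counts therefore describe only how the calls of members moved.

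Leaving out 1 array gave 3 to 33 calls pooled, 0 to 12 in Organic-UVR, 0 to 22 in Organic + UVR, 0 to 2 in TiO2 + UVR, 0 to 1 for Organic + UVR against Control + UVR, 0 to 2 among all groups and 0 in the other comparisons. The pooled count was 3 without ZnO-UVR 4 or Organic + UVR 2, 4 without Control-UVR 6, Control + UVR 2, TiO2 + UVR 6 or TiO2-UVR 1, 5 without TiO2 + UVR 4, 6 without Organic-UVR 1, Organic + UVR 4 or ZnO-UVR 6, 7 without ZnO + UVR 1, 2, 4 or 5, TiO2-UVR 5 or Control-UVR 2, 8 without TiO2-UVR 2 or Control-UVR 1 and 33 without Organic + UVR 1. Organic-UVR gave 0 without Control-UVR 1, 2, 4 or 6 or Organic-UVR 1 or 2, 1 without Control-UVR 3 or Organic-UVR 6, 2 without TiO2-UVR 2 or TiO2 + UVR 5, 7 without Organic-UVR 5, 9 without Organic-UVR 3 or Organic + UVR 1 and 12 without Control-UVR 5. Organic + UVR gave 1 without TiO2 + UVR 1, 4 without Organic + UVR 5, 5 without Control-UVR 5, 6 without Organic-UVR 1 and 22 without Organic + UVR 1. TiO2 + UVR gave 1 without Control-UVR 5 and 2 without its replicate 1, and Organic + UVR against Control + UVR gave 1 without Control + UVR 5. Among all groups the count was 1 without Control + UVR 2 or 5 or Organic + UVR 1 and 2 without TiO2 + UVR 1.

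The 17 differences of called genes, 13 pooled and 4 in Organic-UVR, kept their sign in each of these settings. All 17 lost their call without the replicate block and with the slope, 13 after quantile normalization and 15 at the stricter threshold. Same-numbered arrays of different groups had a mean correlation of deviations of 0.153 (-0.508 to 0.746, 103 of 161 pairs above 0.1) and differently numbered ones of -0.0282. The number stands in the fit as a block, so groups were compared within numbers. The labels do not name same-numbered mice as pairs.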
